A study of Mus musculus with 2 samples.

Results

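The Zic genes encode a small family of transcription factors with tandem C2H2 zinc fingers related to those of the Gli proteins. The members described here are Zic1, Zic2, Zic4 and Zic5. They were chosen by name as the rows that carry these symbols in both gene tables, which gave 4 of 43346 mouse gene rows. The data are total RNA-seq of forebrain tissue from mouse embryos of the B6NCrl strain at embryonic day 13.5, from pooled male and female embryos, untreated and described as healthy. There is 1 group of 2 libraries, which the labels call biological replicates of separate tissue samples with the same donor code. Each was made from 10 ng of RNA longer than 200 bases, and they held 35378462 (replicate 1) and 36793284 (replicate 2) estimated counts. No condition was compared. Errors are therefore SDs of 2 libraries, which may be partly technical, and no p-value is given, since an exact sign test on 2 values cannot go below p = 0.5.

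Zic factors are expressed along the dorsal and medial edge of the embryonic neural tube. In the forebrain this includes the septum, the cortical hem, the roof plate and parts of the thalamus, and the meninges that cover the brain also express them. Loss of ZIC2 causes holoprosencephaly in humans, a failure of the forebrain to divide at the midline. Deletion of the neighbouring ZIC1 and ZIC4 has been linked to Dandy-Walker malformation of the human cerebellum. In mice, Zic1 is needed for growth of the cerebellum, and Zic5 for closure of the neural tube and for neural crest.

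The genes lie in divergent pairs, with neighbours transcribed away from each other. On GRCm38 with GENCODE M21, Zic1 (ENSMUSG00000032368) covers chr9:91358058-91365810 on the minus strand and Zic4 (ENSMUSG00000036972) covers chr9:91362413-91389348 on the plus strand. Zic2 (ENSMUSG00000061524) covers chr14:122475435-122479852 on the plus strand and Zic5 (ENSMUSG00000041703) covers chr14:122456795-122465677 on the minus strand. The Zic2 and Zic5 starts are 9758 bases apart. The Zic1 and Zic4 spans share 3398 bases, because the transcript Zic4-208 starts inside Zic1. The main Zic1 transcript, Zic1-201, starts 3044 bases from Zic4-207, which starts outside Zic1. The plot of both loci draws these arrangements.

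**Figure D1:**
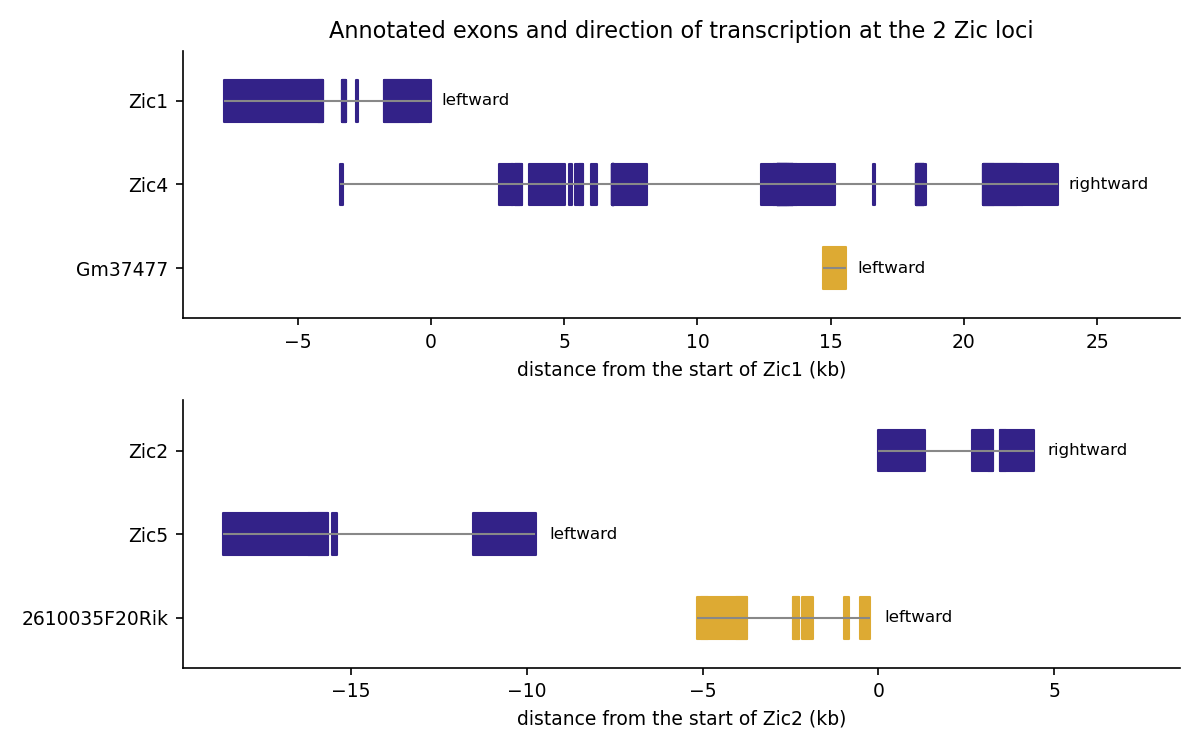
Annotated exons (boxes) and gene spans (lines) at the 2 Zic loci, with the distance from the start of Zic1 (upper panel) or Zic2 (lower panel) in kb on the x axis. Zic genes are dark and neighbouring or overlapping noncoding genes are yellow. The words at the right ends give the direction of transcription, and the Zic2 and Zic5 starts are 9758 bases apart.

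The 4 coding sequences are similar to each other over part of their lengths. They are 1341 (Zic1), 1587 (Zic2), 1023 (Zic4) and 1866 (Zic5) bases long. By local alignment of the coding bases, the identity of the 6 possible pairs was between 78.9% (Zic1 and Zic4, over 725 aligned bases) and 82.1% (Zic2 and Zic5, over 569 aligned bases). A stretch of 60 coding bases is shown because it is the kind of shared sequence from which reads of relatives could be confused. It was picked as the stretch of Zic1 that the other genes match best, so it is not typical of the coding sequences. It comes from the GENCODE M21 transcripts on GRCm38 at chr9:91364230-91364289 (Zic1, minus strand), chr14:122476494-122476553 (Zic2, plus strand), chr9:91379149-91379208 (Zic4, plus strand) and chr14:122464086-122464145 (Zic5, minus strand). It reads 5′ to 3′, and capitals mark bases that differ from Zic1:
Zic1: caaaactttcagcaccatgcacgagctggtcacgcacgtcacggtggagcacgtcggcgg
Zic2: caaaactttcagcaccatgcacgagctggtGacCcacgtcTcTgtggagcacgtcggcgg
Zic4: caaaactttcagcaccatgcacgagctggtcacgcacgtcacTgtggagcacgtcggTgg
Zic5: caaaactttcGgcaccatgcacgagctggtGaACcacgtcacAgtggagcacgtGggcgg
Of the 60 bases, 58 in Zic4, 56 in Zic2 and 54 in Zic5 were identical to Zic1. No 100-base window of any Zic transcript occurred in another Zic gene. For Zic1 and Zic2 the deposited posterior SD of the gene count was 0 reads in both libraries, so no read was divided between either gene and another. Zic5 shared 91 windows of Zic5-201 (1.95%) and 78 of Zic5-202 (12.9%) with Gm12241, a processed pseudogene on chromosome 11. Gm12241 held 1.27 estimated counts in replicate 1 and 0 in replicate 2.

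All 4 Zic genes were detected in both libraries at 1 TPM (a relative abundance per transcript length) or more, a level that 59% of 21474 protein-coding genes reached. Zic4 led the family, followed by Zic5, Zic1 and Zic2, in both libraries. Zic4 had a level of 40.4 in replicate 1 and 50.6 in replicate 2, in TPM, with a mean of 45.5 ± 7.17 TPM (SD, n = 2). The deposited TPM intervals of Zic4, whose level is not stated, ran from 37.8 to 42.9 and from 47.6 to 53.6 TPM and did not overlap between libraries. The mean level of Zic4 stood above 83.3% of protein-coding genes. It rested on 2233 and 3079 estimated counts.

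Zic5 had a level of 16.4 in replicate 1 and 14.2 in replicate 2, in TPM, with a mean of 15.3 ± 1.53 TPM (SD, n = 2) from 1313 and 1447 estimated counts. Its intervals, 14.3 to 17.8 and 12.9 to 15.2 TPM, overlapped. Zic1 was at 9.07 and 12.4 TPM in replicates 1 and 2, with a mean of 10.7 ± 2.32 TPM from 1107 and 1630 counts, and its intervals did not overlap. Zic2, the holoprosencephaly gene, was the lowest member. It had 8.52 and 9.88 TPM in replicates 1 and 2, with a mean of 9.20 ± 0.962 TPM from 423 and 537 counts. The Zic2 intervals, 7.57 to 9.27 and 8.87 to 10.6 TPM, overlapped.

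The mean levels of Zic5, Zic1 and Zic2 stood above 66.1%, 61.1% and 59.0% of protein-coding genes, whose median was 4.09 TPM in replicate 1 and 3.71 in replicate 2. The summed level of the 4 genes was 74.4 TPM in replicate 1 against 87.0 in replicate 2, and Zic4 made up 54.3% and 58.1% of these sums. Zic4 was separated from Zic5 by 2.47-fold and 3.56-fold, with no overlap of the deposited intervals. The lower steps of the order were less firm. Zic5 exceeded Zic1 by 1.81-fold in replicate 1, but by 1.15-fold with overlapping intervals in replicate 2. Zic1 exceeded Zic2 by 1.06-fold with overlapping intervals in replicate 1 and by 1.25-fold without overlap in replicate 2. In bulk tissue, fewer cells that express a gene and less RNA per cell cannot be told apart.

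**Figure D2:**
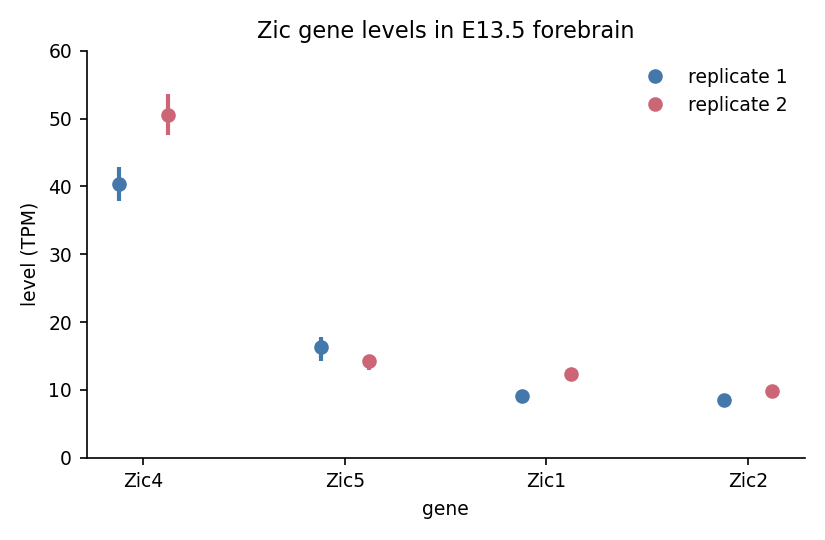
Level in TPM (y axis, linear from 0) of each Zic gene (x axis), with 1 point per library and the deposited TPM interval as a line. Zic4 sits at 40.4 and 50.6 TPM, above the other genes, which lie between 8.52 and 16.4 TPM.

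The first pair, Zic1 and Zic4, was unequal. Per length, Zic1 was at 9.07 TPM and Zic4 at 40.4 TPM in replicate 1, and Zic1 was at 12.4 TPM and Zic4 at 50.6 TPM in replicate 2. Zic4 was thus 4.46-fold and 4.09-fold above Zic1. On the log2(TPM + 1) scale the ratio of Zic1 over Zic4 was −2.04 and −1.95, with a mean of −1.99 ± 0.064 (SD, n = 2). In estimated counts, which unlike TPM grow with length, Zic4 was 2.02-fold and 1.89-fold above Zic1. The effective length of Zic1 was 5488 and 5445 bases in replicates 1 and 2, against 2485 and 2513 bases for Zic4. Part of the gap in TPM rests on Zic4 transcripts not annotated as coding, since coding transcripts held 44.1% and 50.7% of its TPM in replicates 1 and 2. The coding transcripts Zic4-201 and Zic1-201 alone were closer, at 14.8 and 9.01 TPM in replicate 1 and 19.0 and 12.1 TPM in replicate 2.

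The other pair, Zic2 and Zic5, was closer. Zic2 was at 8.52 TPM and Zic5 at 16.4 TPM in replicate 1, and Zic2 was at 9.88 TPM and Zic5 at 14.2 TPM in replicate 2. The ratio of Zic2 over Zic5 was −0.87 and −0.48 on the log2(TPM + 1) scale, with a mean of −0.68 ± 0.27 (SD, n = 2). Zic2 was the lower gene of its pair in both libraries, as Zic1 was of its own. In counts the order of the pairs turned round: Zic5 was 3.10-fold and 2.69-fold above Zic2, a wider gap than that between Zic1 and Zic4. Counts grow with length, and the effective length of Zic5, 3606 and 4203 bases, exceeded that of Zic2, 2234 and 2242 bases.

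The pairs were set beside all divergent pairs of neighbouring protein-coding genes with starts within 20 kb and at least 1 TPM for both genes in both libraries, which gave 1524 pairs. Their median absolute log2 ratio was 1.71, with quartiles at 0.81 and 2.94, and 43.3% of them were at least 4-fold apart on this scale. The Zic1 and Zic4 pair lay at that mark, past it in replicate 1 and short of it in replicate 2 and in the mean of both, and the Zic2 and Zic5 pair lay below it. The Zic1 and Zic4 ratio stood above 56.5% of the pairs, and the Zic2 and Zic5 ratio above 21.1%. Neither therefore stood near an end of the distribution. Between libraries, the ratio of Zic1 over Zic4 moved by 0.09 on the log2 scale, against a median move of 0.13 over all pairs. The ratio of Zic2 over Zic5 moved by 0.39, more than 91.8% of the pairs.

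**Figure D3:**
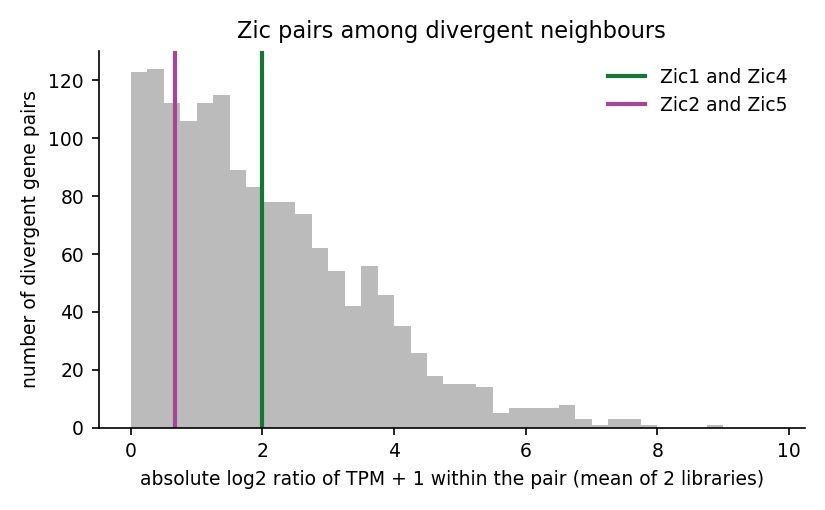
Number of divergent gene pairs (y axis) by the absolute log2 ratio of TPM + 1 within the pair (x axis, mean of 2 libraries), over 1524 pairs. Vertical lines mark Zic1 and Zic4, above 56.5% of the pairs, and Zic2 and Zic5, above 21.1%.

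The promoters of the Zic1 and Zic4 pair are shown because these neighbours differ in level. The sequences are RefSeq windows of 300 bases on GRCm38.p6, running 5′ to 3′ and ending 50 bases past the start used by RefSeq. They lie at chr9:91365719-91366018 (Zic1, minus strand) and chr9:91368722-91369021 (Zic4, plus strand). The RefSeq start is not the start of the GENCODE gene span given above, which for Zic4 begins upstream of the window, at 91362413. Capitals mark each CG:
Zic1: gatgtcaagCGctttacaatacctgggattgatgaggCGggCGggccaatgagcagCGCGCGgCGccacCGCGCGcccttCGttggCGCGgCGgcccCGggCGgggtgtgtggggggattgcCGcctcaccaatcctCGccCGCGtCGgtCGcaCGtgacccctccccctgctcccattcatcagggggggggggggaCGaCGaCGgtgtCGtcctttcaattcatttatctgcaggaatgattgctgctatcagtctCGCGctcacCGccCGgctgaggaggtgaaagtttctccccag
Zic4: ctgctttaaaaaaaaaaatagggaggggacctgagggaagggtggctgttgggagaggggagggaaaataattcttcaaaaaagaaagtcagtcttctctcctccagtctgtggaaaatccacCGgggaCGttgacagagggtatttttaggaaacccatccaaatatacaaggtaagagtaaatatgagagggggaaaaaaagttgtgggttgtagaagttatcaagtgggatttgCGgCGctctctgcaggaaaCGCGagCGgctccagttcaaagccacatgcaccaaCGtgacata
The Zic1 window held 31 CG and was 65.3% G or C, while that of Zic4 held 8 CG and was 46.0% G or C. The more abundant gene of the pair thus had the window with fewer CG. However, the Zic4 window lies at upstream starts, whose transcripts held 35.4% and 36.3% of Zic4 by TPM in replicates 1 and 2. Transcripts from starts further downstream held 56.8% and 58.2%. The Zic5 window (chr14:122465609-122465908, minus strand) held 15 CG and was 62.7% G or C. Over 32851 RefSeq windows of the same length the medians were 7 CG and 52.7%. A search on both strands found neither CCTGCTG, the core of a motif reported for Zic binding, nor the TATA box letters TATAAA in the Zic1, Zic4 or Zic5 window. These motifs, neither of which contains the other, occurred in 10.5% and 13.6% of all windows.

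The transcript tables list 19 transcripts of the 4 genes, of which 12 belong to Zic4, and the deposited percentages give each transcript's share of its gene's TPM. Zic1 and Zic2 were each read almost wholly from their main coding transcript. Zic1-201 held 99.3% and 97.8% of Zic1 in replicates 1 and 2. Zic1-202, also coding, held 0.69% and 2.23%, and Zic1-203 was listed at 0 in both libraries. Zic2-201 held 93.6% and 94.1% of Zic2, and the retained-intron transcript Zic2-202 held the remaining 6.41% and 5.93%.

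Zic5 was divided differently in the libraries. The coding transcript Zic5-201 held 73.9% and 88.5% of the gene in replicates 1 and 2. The rest, 26.2% and 11.5%, went to Zic5-202, a processed transcript of 705 bases. In reads the share of Zic5-202 was small, with 57.7 and 23.9 estimated counts, or 4.39% and 1.65% of the counts of Zic5. Of its exons, the one of 583 bases overlaps an exon of Zic5-201 and the one of 122 bases, at chr14:122459900-122460021, does not.

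The move of 14.69 points between libraries was larger than the largest move of a share in 88.7% of 8840 genes, whose median was 4.84 points. The deposited intervals of Zic5-202, 2.53 to 6.06 TPM and 0.78 to 2.78 TPM, overlapped. Zic5-201 alone was steady, with 12.1 and 12.6 TPM in replicates 1 and 2. On that transcript alone the mean of Zic5 was 12.3 TPM and the log2 ratio of Zic2 over Zic5 averaged −0.39, so the level of Zic5 and the gap of its pair both rest in part on at most 57.7 reads of a library.

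Zic4 was spread over many transcripts. Zic4-201, a coding transcript, was the most abundant with 36.6% and 37.6% of the gene, or 14.8 and 19.0 TPM in replicates 1 and 2. The processed transcript Zic4-202 held 16.1% and 15.8%. The retained-intron transcript Zic4-211 held 17.3% and 13.1%. By annotated type, coding transcripts held 44.1% and 50.7% of Zic4, retained introns 30.3% and 25.8%, and processed transcripts 25.6% and 23.5%. Total RNA holds unspliced precursors, and reads from them cannot be told apart here from retained introns.

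By start, the 3 Zic4 transcripts that begin at the downstream starts (91378197 to 91382410) held 56.8% and 58.2% of the gene. The 5 that begin upstream (91368367 to 91369498), where the RefSeq promoter window of Zic4 lies, held 35.4% and 36.3%. The 3 in between held 6.16% and 5.47%. Zic4-208, which starts inside Zic1, held 1.64% in replicate 1, from 3.29 estimated counts, and was listed at 0 in replicate 2. The division by start thus differed little between the libraries, while single transcripts moved more. Zic4-204 was listed at 0 in replicate 1 and at 4.59% in replicate 2, with posterior SDs of 23.2 and 52.2 reads. Zic4-207 held 1.41% and 4.91%, and Zic4-210 held 0.69% and 0. Of the remaining Zic4 transcripts, Zic4-206 held 9.53% and 7.63%, Zic4-203 7.14% and 6.04%, and Zic4-205 4.12% and 4.78%. Zic4-209 held 3.73% and 3.58%, and Zic4-212 held 1.74% and 1.89%.

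Zic4-211 overlaps another gene. Its last exon shares 468 bases with Gm37477, an unclassified gene on the opposite strand (chr9:91380519-91381402), and 369 of its 100-base windows (14.6%) occur there in reverse. The counts of Zic4 and Gm37477 were not whole, but summed to 2293 in replicate 1 and 3168 in replicate 2. Both genes carried the same posterior SD, 5.72 and 6.06 reads. Reads over the shared bases were therefore divided between genes on opposite strands and cannot be told apart. Gm37477 received 59.6 and 88.9 counts, a small number beside the counts of Zic4.

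**Figure D4:**
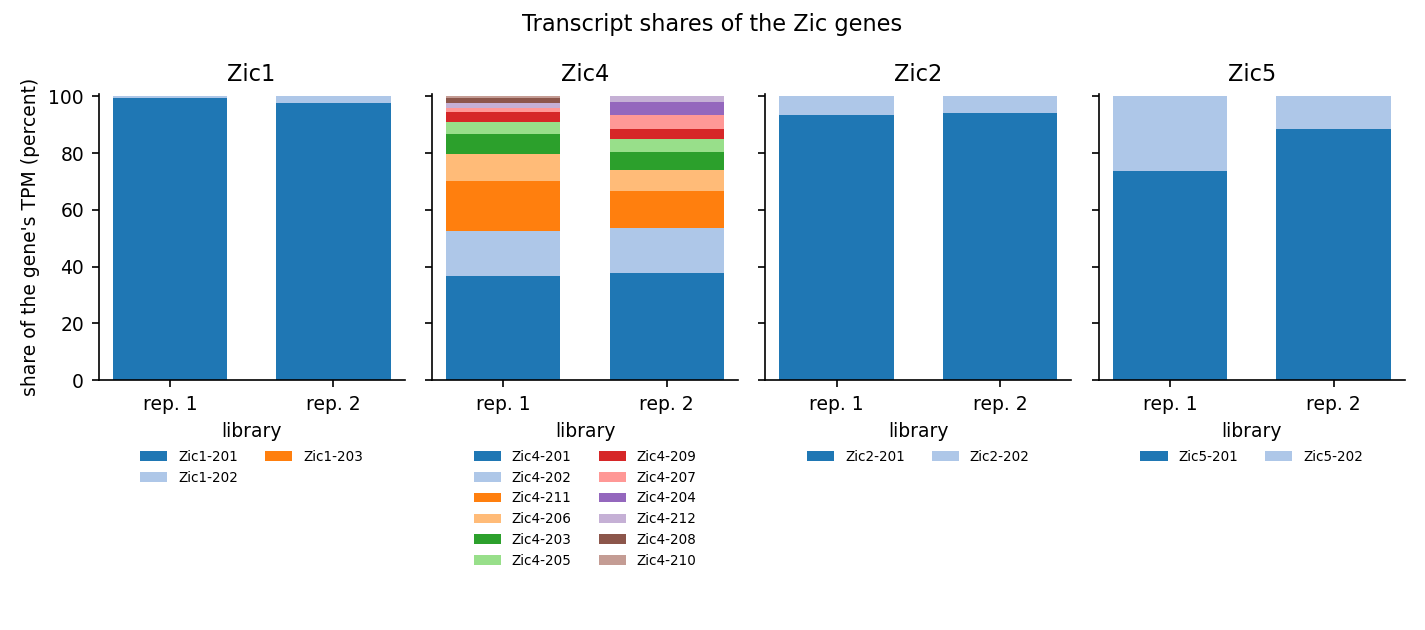
Share of each annotated transcript in its gene's TPM (y axis, percent, stacked to 100) in each library (x axis), with 1 panel per gene and 1 color per transcript. Zic1 and Zic2 are filled almost wholly by 1 transcript, Zic5 by Zic5-201 at 73.9% and 88.5%, and Zic4 by many, led by Zic4-201 at 36.6% and 37.6%.

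The neighbourhood of the pairs was examined within 100 kb. It holds 17 other annotated genes, of which 14 are in the tables, and 8 of those reached 1 TPM in both libraries. Among protein-coding genes 59% did, but most of these neighbours are not coding, so that share is not a direct measure for them. Closest to Zic2 is 2610035F20Rik, a noncoding gene on the minus strand (chr14:122470284-122475199) whose start is 236 bases from that of Zic2. It was at 7.64 and 5.63 TPM in replicates 1 and 2, near the level of Zic2 but lower in replicate 2, where Zic2 was higher. Of the coding neighbours, Pcca and Clybl were higher than Zic2 and Zic5. Pcca, a subunit of the mitochondrial propionyl-CoA carboxylase, was at 22.8 and 20.6 TPM. Clybl, a mitochondrial lyase, was at 19.0 and 17.1 TPM. The other coding neighbours were low, with Gm5089 at 1.72 and 1.32 TPM and Gm10837 at 0.41 and 0.46 TPM. The pseudogene Gm9399 was listed at 0 in both libraries, and Gm25464, a small nuclear RNA, had 0 counts in replicate 1 and 1 in replicate 2.

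Around Zic1 and Zic4, the noncoding or unclassified genes Gm29478 (6.34 and 4.83 TPM), Gm37477 (3.41 and 4.67 TPM), A730094K22Rik (2.39 and 2.06 TPM) and Gm37457 (1.77 and 1.06 TPM) reached 1 TPM in both libraries. Gm37040 was at 0.99 and 0.72 TPM, Gm37812 at 0.64 and 0.40 TPM and Gm28652 at 0.54 and 0.33 TPM. By TPM, 6 of these 7, all but Gm37477, which shares reads with Zic4, were lower in replicate 2. So were 76.1% of the protein-coding genes with a mean of at least 100 counts. The 7 neighbours had fewer than 100 counts each in either library and are not coding, so they lie outside that set.

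Between the libraries, Zic1, Zic4 and Zic2 were among the genes with the higher ratios of replicate 2 over replicate 1. The log2 ratio of TPM + 1 was 0.41 for Zic1, 0.32 for Zic4, 0.19 for Zic2 and −0.19 for Zic5, against a median of −0.10 over 11967 protein-coding genes with a mean of at least 100 counts. Relative to that median the ratios were 0.51, 0.42, 0.29 and −0.09. The first 3 stood above 99.3%, 98.6% and 95.8% of these genes, and Zic5 above 25.2%. By this scale 3 of the 4 were higher in replicate 2, as were 23.6% of all genes. None of the 4 passed 1.5-fold, which 1.31% of genes did.

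With counts scaled by edgeR's TMM method, whose median over genes was 0.01, all 4 were higher in replicate 2, as were 52.3% of all genes. The log2 ratios were then 0.56 for Zic1, 0.46 for Zic4, 0.34 for Zic2 and 0.14 for Zic5, and 1.8% of all genes, none of them a Zic gene, passed 1.5-fold. The DESeq2 size factors were both 1, so they left the rounded counts unscaled and add no check on library size. On these counts all 4 were again higher in replicate 2, as were 52.5% of all genes. The direction of Zic5 thus depended on the scale. Its deposited effective length, 3606 bases in replicate 1 and 4203 bases in replicate 2, moved with the share of the short Zic5-202, which was at 4.28 and 1.63 TPM.

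Markers of tissues that neighbour or hold Zic cells were set beside these ratios. Since 76.1% of all genes were lower in replicate 2 by TPM and 47.7% by TMM-scaled counts, both counts are given for each list. All 9 choroid plexus markers were lower in replicate 2 on both scales, with sums of 506 and 269 TPM in replicates 1 and 2. Ttr, the thyroid hormone carrier made by the choroid plexus, led them at 420.0 and 217 TPM, and Kl was the lowest at 0.17 and 0.13 TPM. Otx2, a factor needed to form this tissue, was at 29.9 and 19.7 TPM, and Folr1, a folate receptor, at 16.8 and 7.10 TPM. Of 15 cortical hem and roof plate markers, 13 were lower by TPM, a share near that of all genes, and 12 by TMM-scaled counts, with sums of 127 and 85.3 TPM. Among them were Rspo3 (36.2 and 28.1 TPM) and Wnt5a (13.6 and 8.28 TPM), both secreted factors of Wnt signaling, and Msx1, a homeobox gene of the dorsal midline (17.0 and 14.5 TPM), while Gdf7 was at 0 and 0.03 TPM. All 10 markers of Cajal-Retzius cells, early cortical neurons that partly arise from the hem and septum, were lower on both scales, with sums of 155 and 118 TPM. They included Calb2 (50.5 and 40.6 TPM), Reln (28.0 and 25.1 TPM), Nhlh2 (28.9 and 22.0 TPM) and Ebf3 (1.23 and 0.72 TPM).

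Most meningeal markers went the way of Zic1, Zic4 and Zic2. Of 12, 10 were higher in replicate 2 on both scales, beside 23.6% of all genes by TPM and 52.3% by TMM-scaled counts, with sums of 221 and 259 TPM in replicates 1 and 2 and none at 0. Col3a1, a fibrillar collagen, was at 81.0 and 84.7 TPM. Cxcl12, a chemokine secreted by the meninges, was at 31.9 and 48.4 TPM, Lum, a matrix proteoglycan, at 26.5 and 32.1 TPM, and Twist1 at 0.62 and 0.52 TPM.

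Of 9 thalamus and habenula markers, 5 were higher in replicate 2 by TPM and 6 by TMM-scaled counts, with sums of 191 and 258 TPM. Tcf7l2, a Wnt effector high in the thalamus, was at 108 and 174 TPM, Gbx2, a thalamic homeobox gene, at 15.9 and 24.4 TPM, Lhx9 at 27.2 and 28.5 TPM and Irx1 at 0.32 and 0.42 TPM. Tcf7l2 made up most of both sums and of the rise between them. These 4 named markers were all higher in replicate 2, while 4 of the markers not named were lower by TPM. Rostral midline and septum markers were divided, with 4 of 8 higher by TPM, 5 of 8 by TMM-scaled counts, and sums of 114 and 105 TPM. Fgf15 was at 48.1 and 35.9 TPM, Spry2 at 18.0 and 22.5 TPM, Six3 at 15.3 and 18.4 TPM and Fgf8 at 1.23 and 2.05 TPM. The part of these tissues in the differences of the Zic genes was not tested.

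**Figure D5:**
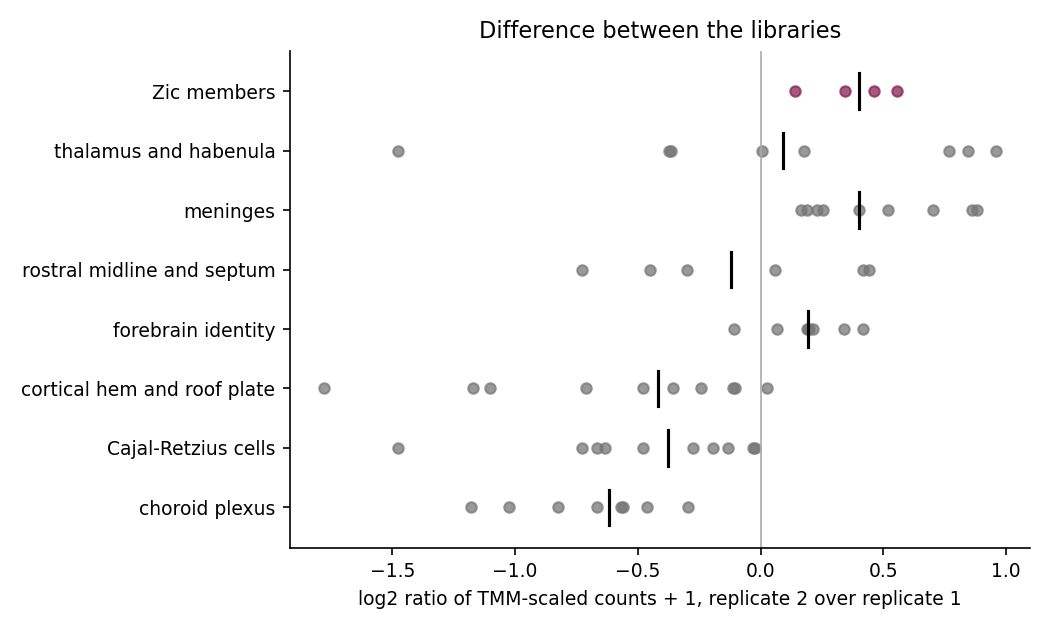
Log2 ratio of TMM-scaled counts + 1, replicate 2 over replicate 1 (x axis), for the 4 Zic genes (top row) and for the marker lists, with 1 point per gene with a mean of at least 100 counts and a black bar at the median. The Zic genes lie between 0.14 and 0.56, while all plotted choroid plexus and Cajal-Retzius markers lie below 0.

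The label of the tissue was checked on markers, beside the 59% of protein-coding genes at 1 TPM or more in both libraries. All 8 forebrain identity genes were at 1 TPM or more in both libraries, with a median of 69.4 TPM, including Dlx1 of the basal forebrain (233 and 235 TPM), Lhx2 (141 and 126 TPM) and Pax6 (72.8 and 75.7 TPM), both of forebrain progenitors, with Emx2 of the dorsal forebrain lowest at 31.3 and 24.5 TPM. Zic levels thus stood below those of these genes, except that Zic4 exceeded Emx2. Midbrain and hindbrain markers were low, with 1 of 12 at 1 TPM or more, Barhl1 at 3.75 and 1.04 TPM, and a median of 0.03 TPM. Pax8 was listed at 0.08 TPM in both libraries. Of 6 eye markers 1 reached 1 TPM, Six6 at 1.13 and 2.37 TPM, with Rax at 0.79 and 0.53 TPM and Crx listed at 0.

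Relatives and partners of the Zic factors covered a wide range. Of 6 Gli and Glis genes, whose zinc fingers resemble those of Zic, 3 reached 1 TPM in both libraries, beside 59% of protein-coding genes. The 3 were Gli3, a repressor of hedgehog targets (24.2 and 21.8 TPM), Glis2 (14.3 and 15.8 TPM) and Gli2, an activator (5.43 and 4.60 TPM). Glis1 was lowest at 0.71 and 0.62 TPM. Zic4 was above each of them, and Zic1 and Zic2 lay between Gli2 and Glis2. Of 12 reported binding partners and modifiers of Zic proteins, 11 reached 1 TPM, beside the same 59%, with a median of 21.2 TPM. Tcf7l2 was at the values above, Parp1, an enzyme of DNA repair, at 168 and 148 TPM, Smad2, a TGF-beta effector, at 52.3 and 52.0 TPM, and Gli1 lowest at 1.65 and 0.91 TPM.

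Of 9 genes reported as Zic targets, 5 reached 1 TPM in both libraries, a share near the 59% of all protein-coding genes. Among those reported here, Ccnd1, a cyclin, was at 108 and 88.6 TPM and Robo2, an axon guidance receptor, at 52.9 and 54.8 TPM, while Foxd3, a neural crest factor, was listed at 0. Of 14 holoprosencephaly genes, 10 reached 1 TPM, beside the same 59%, with a median of 7.23 TPM. Dll1, a Notch ligand, was at 55.0 and 47.0 TPM, Gas1, a hedgehog co-receptor, at 40.2 and 42.3 TPM, Tgif1, a transcriptional repressor, at 27.8 and 19.7 TPM, and Nodal, a TGF-beta family ligand, at 0 and 0.06 TPM. Zic2 lay above the median of the list in both libraries.

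By level in the 2 libraries, the listed gene nearest to Zic4 was Gas1, at a distance of 0.25 in log2(TPM + 1), followed by Xrcc6. Nearest to Zic5 was Msx1 at 0.06, followed by Sp8 and Glis2. Prox1 was nearest to both Zic1, at 0.46, and Zic2, at 0.26. It was followed by Smad3 for both, and then by Sp8 for Zic1 and Axin2 for Zic2. Over 2 libraries this distance describes a like level only.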

How the data were processed

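Total RNA-seq of 2 libraries was analysed from the deposited gene and transcript tables. The tables were made on mm10 with GENCODE M4, per the file headers and metadata. Aligner, quantifier and use of strand in counting were not given in the sources used here. Expected counts, as the authors deposited them, are estimated counts, with reads that match several features divided among those features. The TPM and FPKM values are the authors' abundances per length. The deposited posterior mean TPM was treated as a score. The deposited TPM interval bounds, treated as a signal, have no stated level. The percent column deposited for transcripts is the share of each in the TPM of its gene. The deposited effective length of Zic2-201 was its length minus 99 bases.

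Of 69691 table rows, 43346 were mouse genes, and 42462 matched GENCODE M21 by identifier, the source of symbols, types and positions. Log2 ratios used a pseudocount of 1 in TPM unless counts are named. Ratios between libraries used genes with a mean of at least 100 counts. Counts were rounded to whole numbers and scaled with edgeR 4.0.16 (TMM) and DESeq2 1.42.0 (size factors, both equal to 1) in R 4.3.3, and the scaling was tested on simulated data. Python 3.11.15 with pandas 2.3.3, numpy 2.4.6, matplotlib 3.10.9 and Biopython 1.88 did the rest.

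The members and gene lists were chosen with earlier results of these data known. The text names every member and its transcripts, of each list the 3 genes highest and the 1 lowest by mean TPM, the annotated neighbours within 100 kb and the 3 listed genes nearest in level. Gm12241, the promoter motifs and the transcript Zic5-201 taken alone were singled out with their values known. Some of the genes named by this rule are not reported here.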

Additional observations from a re-analysis of the deposited data

How the results depend on the processing

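The order of the levels, Zic4 above Zic5, Zic1 and Zic2, held in posterior mean TPM and in each library alone. FPKM is proportional to TPM within a library, so the same order there was fixed in advance and adds no check. In estimated counts Zic5 was above Zic1 in replicate 1 (1313 and 1107) but below it in replicate 2 (1447 and 1630). In FPKM the means of Zic1, Zic4, Zic2 and Zic5 were 6.92, 29.4, 5.93 and 9.83. Rescaled over protein-coding genes only, Zic4, Zic2 and Zic5 were at 55.0, 11.1 and 18.4 TPM, and Zic5-201 alone, an alternative chosen after seeing the data, was at 12.3 TPM. The log2 ratio of Zic1 over Zic4 was −2.08 with a pseudocount of 0.1 and −0.96 in expected counts, and that of Zic2 over Zic5 was −1.53 in expected counts and −0.39 with Zic5-201 alone. With no minimum TPM the Zic1 and Zic4 ratio stood above 52.4% of divergent pairs. With starts within 5 kb the Zic2 and Zic5 pair has no value, since its starts are 9758 bases apart. From posterior mean TPM the shares of Zic1-201, Zic4-201 and Zic2-201 were 96.0%, 36.1% and 93.1%, and from expected counts those of Zic4-201, Zic2-201 and Zic5-201 were 56.3%, 98.2% and 97.0%, since short transcripts weigh less in reads. The difference of Zic5 between libraries, −0.19 in TPM, turned round in other settings. It was 0.14 with TMM-scaled counts, 0.14 with DESeq2 size factors, which left the counts unscaled, and 0.053 with Zic5-201 alone. No paired analysis was possible because there is 1 group only. The 2 libraries limit the precision, and with n = 2 leaving out either one gives back the value of the other, so it adds no check beyond the values per library.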
